A study of Arabidopsis thaliana with 4 samples.

Results

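Genes of endoreduplication, the cell cycle and DNA replication were examined in Arabidopsis thaliana plants with and without the bHLH regulators that start leaf trichomes. The set holds the loci that the study's list of trichome genes ties to ploidy and the cell cycle, together with genes whose symbols begin like those of cyclins, cyclin-dependent kinases (CDKs), CDK inhibitors, replication licensing factors, the anaphase-promoting complex or Aurora kinases. By this rule 28 of the 13338 genes with a named probe set were found. DELTA-OAT and DELTA-VPE matched only by the letters of their symbols, since they encode an aminotransferase and a vacuolar processing enzyme, and were left out, so that 26 genes remained. Of the 25 loci listed, 23 were measured. UVI4 (listed as PYM), which encodes an inhibitor of the anaphase-promoting complex, and FZR2, which encodes an activator of that complex in endocycling cells, had no named probe set and were not analysed here. The other 3 members, the Aurora kinase genes AUR1, AUR2 and AUR3, came from the symbol prefixes, and no A-, B- or D-type cyclin, CDK, MCM or ORC gene was added by them.

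Total RNA came from green tissue at an age of 20 days by the labels, and the series description states that roots were not included. The 2 groups were gl3 egl3 double mutants, which carry mutations in both GL3 and EGL3 and form no leaf trichomes, and wild type plants of the accession L. er (Landsberg erecta), and the mutant titles name no accession. Each group had 2 samples, each amplified, labelled with biotin and hybridised to 1 Affymetrix ATH1 array, and the methods describe independent biological material for replicates. Values are log2 expression values after GCRMA background correction and normalisation, and differences are gl3 egl3 minus wild type. Values under 3 are called the low end of the scale, where GCRMA compresses differences, and 6 of the 26 members had their mean there, against 37.7% of all probe sets. Array medians were 4.99 and 4.95 for gl3 egl3, against 4.96 and 4.92 for wild type, and probe sets correlated at 0.992 within each group, against 0.985 to 0.989 across groups.

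In the endocycle a cell copies its genome again and again without dividing, so that its nucleus grows in DNA content. The leaf trichome is the classical plant example, because a single epidermal cell leaves the mitotic cycle, endoreduplicates and branches. Entry into the endocycle goes with loss of mitotic CDK activity through inhibitors such as SIM and through the anaphase-promoting complex, whereas S phase still runs through D-type cyclins, the retinoblastoma protein RBR1, E2F transcription factors and origin licensing. Trichomes and their precursors are a small part of green tissue, and in such bulk samples fewer cells of a type and less RNA per cell cannot be told apart.

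No member differed between gl3 egl3 and wild type past an adjusted p of 0.05 (limma, Benjamini-Hochberg over 22746 probe sets), where the share over all probe sets was 0%. The smallest adjusted p among the members was 0.283, against 0.0769 over all probe sets. At an unadjusted p under 0.01, 1 member, E2F1, was lower in gl3 egl3, where 1.22% of all probe sets were lower, and 0 members were higher, against 2.03%. E2F1 did not pass this level when any 1 array was left out. At an unadjusted p under 0.05, E2F1 was still the only member past the level, and 3.72% of all probe sets were lower and 5.58% higher. The members split evenly, with 13 above and 13 below wild type, a median difference of 0.00 and a range of -0.77 to 0.68, against 8651 of the 13338 named genes above wild type and a median of 0.01 over them. The difference was over 0.5 in size for 4 members (CYCD3;1, CDC6, RHL1 and AUR2), where it was for 12.3% of all probe sets. Of the 20 members at or above a mean of 3, 11 lay above wild type with a median of 0.04, against 4428 of the 7637 named genes of that range, whose median was 0.04 as well.

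**Figure D1:**
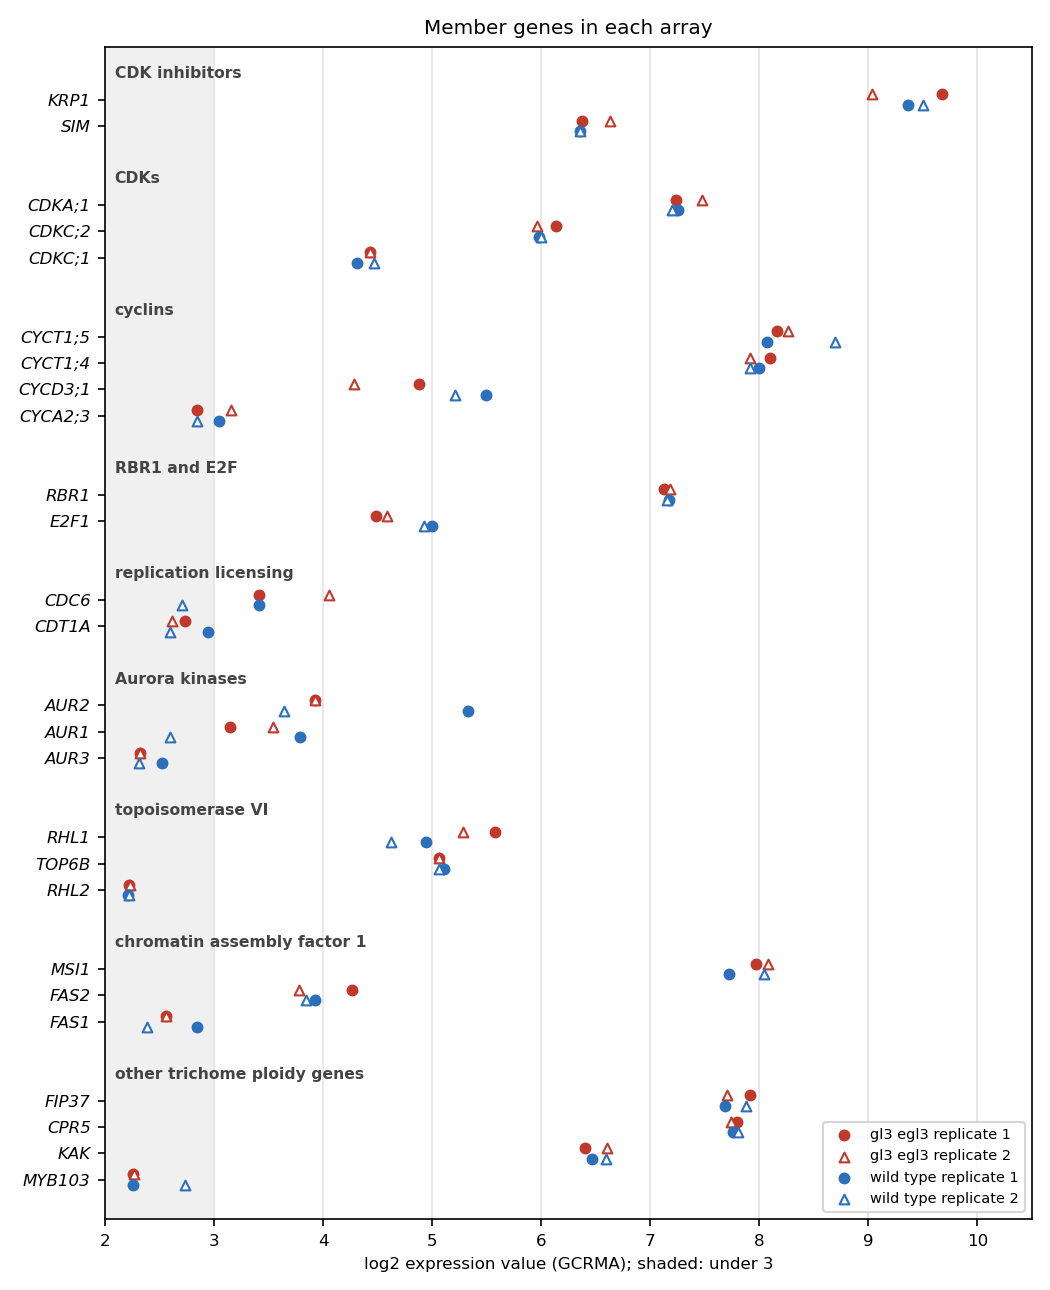
Log2 expression values (GCRMA) of the 26 genes in each of the 4 arrays, gl3 egl3 in red above wild type in blue, with genes grouped by role and values under 3 shaded. The colours separate for E2F1 and RHL1, whereas the wild type arrays of AUR2 (5.33 and 3.64) lie on either side of both gl3 egl3 arrays.

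The CDK inhibitors include SIM (AT5G04470), which holds trichomes out of mitosis, and KRP1 (AT2G23430), which binds CDKA and D-type cyclins. SIM had log2 values of 6.37 and 6.63 in gl3 egl3, against 6.35 and 6.35 in wild type. Both gl3 egl3 arrays were thus above both wild type arrays, the lower of them by little, and the difference was 0.15 (SE 0.119, limma adjusted p = 0.793). Leaving out gl3 egl3 replicate 2 made it 0.01, and leaving out gl3 egl3 replicate 1 made it 0.28. The 95% interval of the fold, 0.835 to 1.47, leaves a 2-fold change in either direction outside. KRP1 was at 9.67 and 9.03 in gl3 egl3, against 9.36 and 9.50 in wild type, so that its gl3 egl3 arrays lay on either side of both wild type arrays (difference -0.08, SE 0.283).

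The measured CDK genes were close in both groups. CDKA;1 (AT3G48750), the kinase that acts in both G1/S and G2/M, was at 7.23 and 7.47 in gl3 egl3, against 7.25 and 7.20 in wild type (difference 0.12, SE 0.108). CDKC;2 and CDKC;1 encode kinases that phosphorylate RNA polymerase II together with T-type cyclins, and their differences were 0.06 (SE 0.0739) and 0.04 (SE 0.0671). For all 3 genes the groups overlapped, and the intervals lay between -0.25 and 0.50. The T-type cyclin genes CYCT1;4 and CYCT1;5, whose products pair with CDKC, differed by 0.05 (SE 0.0948) and -0.17 (SE 0.277).

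CYCD3;1 (AT4G34160), a D-type cyclin that promotes G1/S transition and division, had the largest difference of the 26 members. It had log2 values of 4.88 and 4.28 in gl3 egl3, against 5.49 and 5.21 in wild type. Both gl3 egl3 arrays were below both wild type arrays, but the gl3 egl3 arrays were 0.61 apart. The difference was -0.77 (SE 0.293, limma adjusted p = 0.641), a fold of 0.586 with an interval of 0.29 to 1.18. CYCA2;3 (AT1G15570), an A-type cyclin that restrains endoreduplication, was near the low end, at 2.84 and 3.15 in gl3 egl3, against 3.04 and 2.84 in wild type, and the groups overlapped.

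RBR1 (AT3G12280), the retinoblastoma protein that represses E2F, was the most tightly measured of the genes given so far. It read 7.12 and 7.18 in gl3 egl3, against 7.17 and 7.15 in wild type, and its replicates were at most 0.06 apart. The difference was -0.01 (SE 0.0298), and the interval of the fold ran only from 0.927 to 1.07. The E2F gene AT5G22220 stood apart from this. It carries the symbol E2F1 in RefSeq with E2FB as a synonym, is named E2Fa in the study's list, and encodes an activating transcription factor of S-phase genes. E2F1 had log2 values of 4.48 and 4.58 in gl3 egl3, against 5.0 and 4.92 in wild type. The gl3 egl3 arrays lay below the wild type arrays, and the gap within a group was at most 0.10. The difference was -0.43 (SE 0.0569, unadjusted p = 0.00756), a fold of 0.743 with an interval of 0.648 to 0.851. It ranked 607 of the 22746 probe sets by p, and its limma adjusted p was 0.283. The difference stayed between -0.48 and -0.38 when 1 array was left out, but the unadjusted p was then above 0.01 each time, as it was with quantile normalisation, by the methods' t-test, with the replicate block and with robust variances under an intensity trend. No other E2F gene and no DP gene is among the members.

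Origin licensing was covered by 2 genes, CDC6 (AT2G29680) and CDT1A (AT2G31270), whose products load the replicative helicase onto DNA before S phase. CDC6 had log2 values of 3.41 and 4.05 in gl3 egl3, against 3.41 and 2.70 in wild type. The lower gl3 egl3 array and the higher wild type array were thus equal to the second decimal, and the replicates were 0.64 and 0.71 apart in gl3 egl3 and wild type. The difference of 0.68 (SE 0.416, limma adjusted p = 0.793) lay between these gaps in size. CDT1A was at the low end in both groups, between 2.59 and 2.94.

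The Aurora kinases AUR1 and AUR2 phosphorylate histone H3 and act in the mitotic spindle and cell plate, and AUR3 acts at centromeres. AUR2 (AT2G25880) had log2 values of 3.92 and 3.92 in gl3 egl3, against 5.33 and 3.64 in wild type. AUR1 (AT4G32830) had 3.14 and 3.54 in gl3 egl3, against 3.79 and 2.59 in wild type. In both genes wild type replicate 1 was the highest of the 4 arrays and wild type replicate 2 the lowest, 1.70 apart for AUR2 and 1.20 for AUR1. Over all probe sets, 1.56% had wild type replicate 1 above wild type replicate 2 by more than 1, and 2.23% of those with a mean of 3 or more did. The group differences were -0.56 (SE 0.741) for AUR2 and 0.15 (SE 0.552) for AUR1, and leaving out wild type replicate 1 turned that of AUR2 to 0.29, whereas leaving out wild type replicate 2 made it -1.41. For AUR1 the corresponding values were 0.75 and -0.45. AUR3 was at the low end, at 2.32 and 2.32 in gl3 egl3, against 2.52 and 2.31 in wild type.

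**Figure D2:**
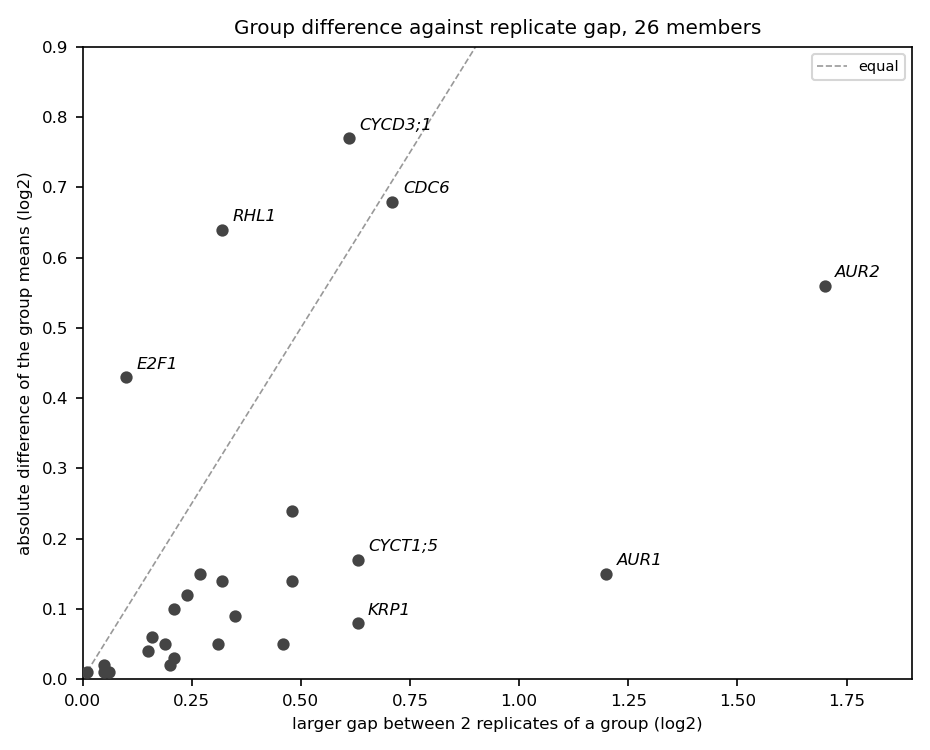
Absolute difference of the group means (vertical axis, log2) against the larger of the gaps between replicates of one group (horizontal axis, log2), 1 point per gene. E2F1 and RHL1 lie well above the line of equal size, CDC6 just below it, and AUR2 and AUR1 far to its right.

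The gap between replicates was larger than the difference between groups for 23 of the 26 members, where it was for 74.1% of all probe sets. The exceptions were CYCD3;1, E2F1 and RHL1. Both gl3 egl3 arrays were above both wild type arrays for 4 members (SIM, CDC6, RHL1 and RHL2), where 38.1% of all probe sets were, and below them for 2 (CYCD3;1 and E2F1), where 12.7% were. At a mean of 3 or more, 3 of 20 members were above and 2 below, against 28.9% and 17.8% of the probe sets in that range.

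RHL1 (AT1G48380), RHL2 (AT5G02820) and TOP6B (AT3G20780, also named HYP6 and BIN3) encode parts of topoisomerase VI, which untangles replicated DNA and is required for the later endocycles of the plant. RHL1 had log2 values of 5.57 and 5.28 in gl3 egl3, against 4.94 and 4.62 in wild type. The gl3 egl3 arrays lay above both wild type arrays, by more than the gap within either group. The difference was 0.64 (SE 0.187, unadjusted p = 0.0506, limma adjusted p = 0.541), and the interval of the fold, 0.998 to 2.44, just held 1. With the replicate number as a block the unadjusted p was 0.00304 and the limma adjusted p 0.343. TOP6B, the B subunit of the same enzyme, stayed within 0.05 over the 4 arrays, at 5.06 and 5.06 in gl3 egl3, against 5.11 and 5.06 in wild type (difference -0.02, SE 0.0275, interval -0.12 to 0.07). RHL2, the A subunit, was at the low end, between 2.21 and 2.23, so its separation, by 0.01, says little. BIN4, a gene outside the member list whose product binds topoisomerase VI, was at 5.27 and 5.82 in gl3 egl3, against 5.36 and 5.37 in wild type (difference 0.18, SE 0.244). The difference of RHL1 from TOP6B and BIN4 was not tested.

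Chromatin assembly factor 1 places histones on newly copied DNA, and its loss alters trichome ploidy and branching. Its small subunit gene MSI1 (AT5G58230) was at 7.97 and 8.08 in gl3 egl3, against 7.72 and 8.04 in wild type (difference 0.14, SE 0.15). FAS2 (AT5G64630) was at 4.26 and 3.78 in gl3 egl3, against 3.92 and 3.84 in wild type (difference 0.14, SE 0.213), and FAS1 (AT1G65470) was at the low end. The groups overlapped for all 3 genes.

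Of the other genes that affect trichome ploidy, KAK (AT4G38600), a HECT ubiquitin ligase that limits endoreduplication and branching, was at 6.40 and 6.60 in gl3 egl3, against 6.46 and 6.59 in wild type (difference -0.02, SE 0.107). Its other probe set read only 2.32 to 2.33. CPR5 (AT5G64930), whose mutants have small trichomes with less DNA and constant defence responses, differed by -0.01 (SE 0.0298), with an interval of -0.12 to 0.09. FIP37 (AT3G54170), a part of the mRNA adenosine methylation complex, differed by 0.03 (SE 0.127). The MYB gene MYB103 (AT1G63910) was at 2.25 and 2.26 in gl3 egl3, against 2.25 and 2.73 in wild type, all at the low end.

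**Figure D3:**
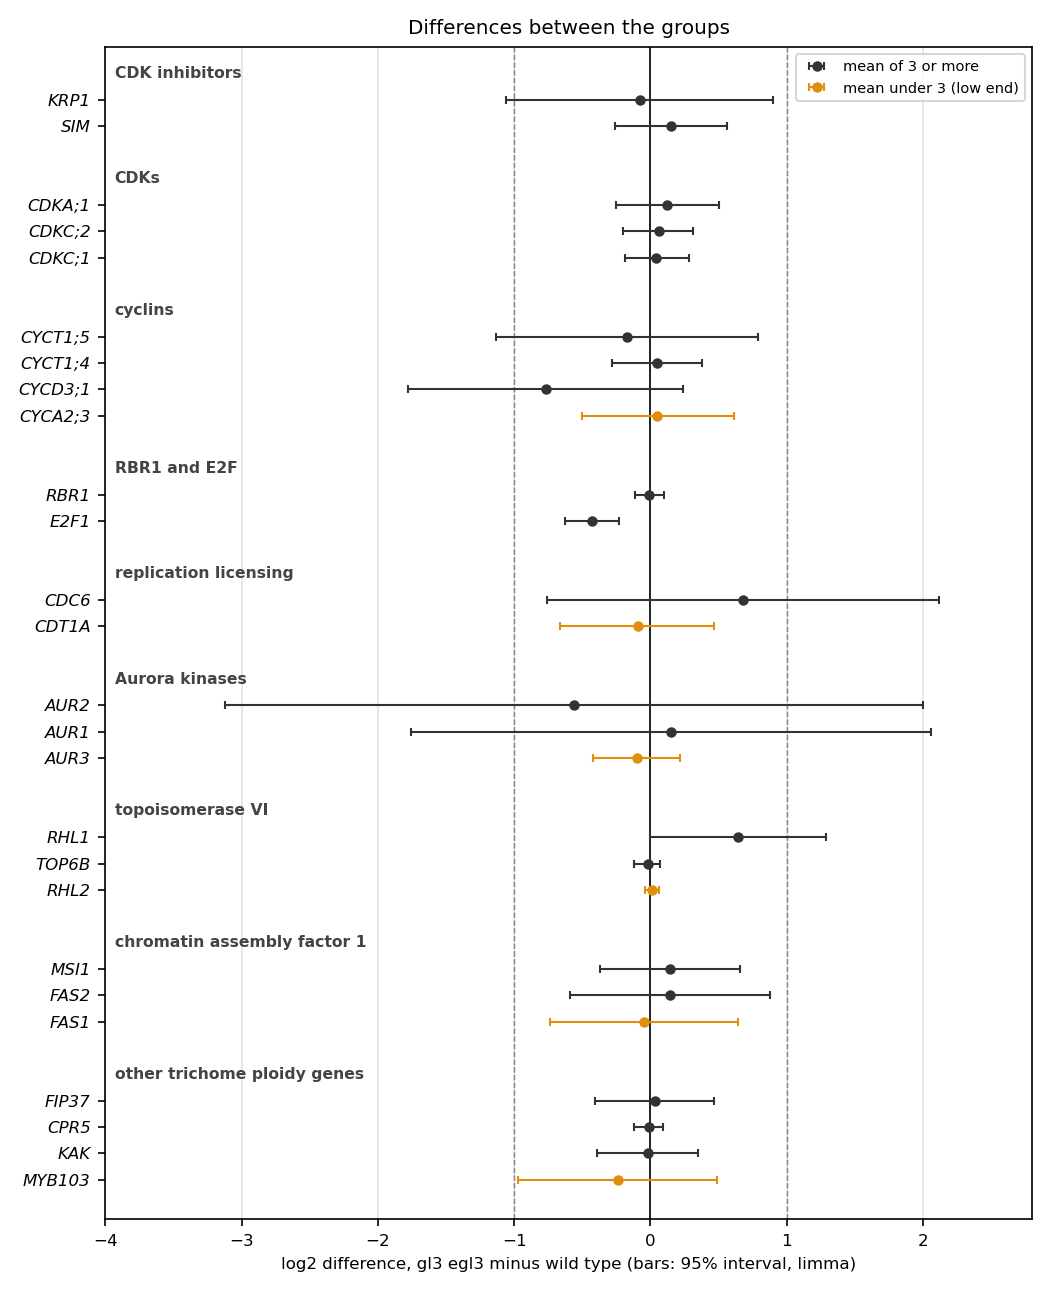
Log2 difference of each gene, gl3 egl3 minus wild type, with its 95% interval from limma (2 arrays per group), in the same order of roles. Dashed lines mark a 2-fold change, and orange marks genes with a mean under 3. The interval of E2F1 (-0.63 to -0.23) lies wholly below 0, and those of AUR2 (-3.12 to 2.00) and AUR1 (-1.76 to 2.06) are the widest. The intervals are not adjusted for the number of probe sets, and the limma adjusted p of E2F1 was 0.283.

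The precision differed widely among the members. For 19 of the 26 the 95% interval of the difference lay within a 2-fold change in either direction, where it did for 73.6% of all probe sets, and 6 of these 19 were at the low end. The other 7 were KRP1, CYCT1;5, CYCD3;1, CDC6, AUR1, AUR2 and RHL1, for which a 2-fold difference in at least 1 direction could not be told from none with these arrays. The genes with the narrowest intervals at a readable level were TOP6B, CPR5 and RBR1, each within 0.12 of 0.

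**Figure D4:**
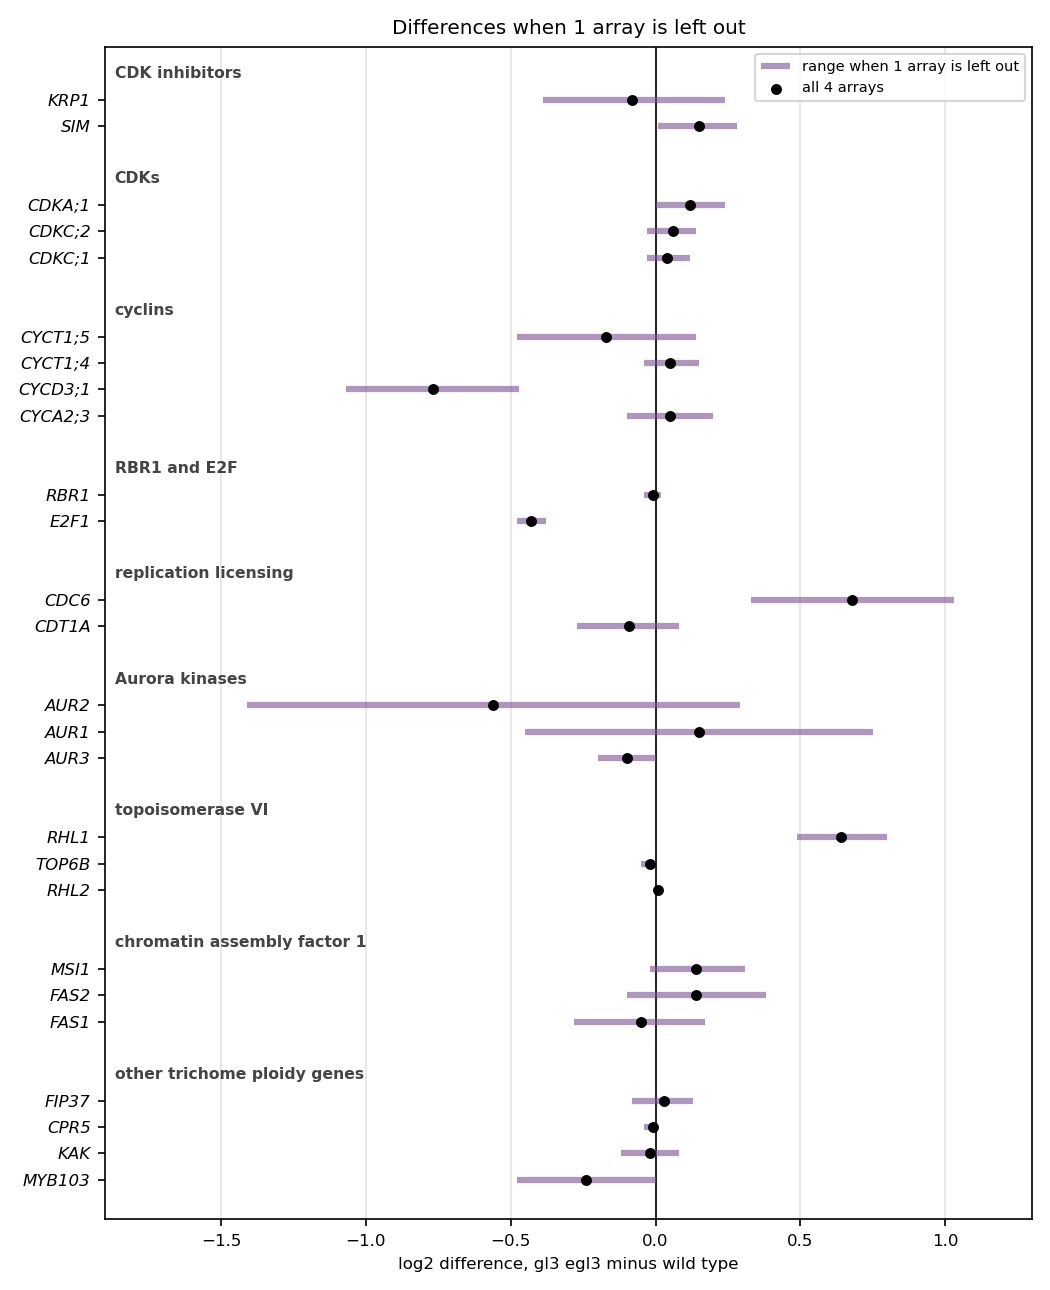
Log2 difference of each gene, gl3 egl3 minus wild type, over all 4 arrays (black points) and its range when each array was left out in turn (purple bars). CYCD3;1 (-1.07 to -0.47), E2F1 (-0.48 to -0.38), CDC6 (0.33 to 1.03) and RHL1 (0.49 to 0.80) keep their side of 0, whereas AUR2 (-1.41 to 0.29) and AUR1 (-0.45 to 0.75) do not.

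Outside the members, 32 further genes of S phase, the E2F and CDK network and mitosis were listed, of which 8 had a named probe set. None of them passed an unadjusted p of 0.01. The largest differences were those of FEN1, the flap endonuclease of Okazaki fragment processing, and SAMBA, a regulator of the anaphase-promoting complex. FEN1 was at 3.13 and 2.59 in gl3 egl3, against 3.41 and 3.84 in wild type (difference -0.76, SE 0.302, limma adjusted p = 0.658). SAMBA was at 5.50 and 5.73 in gl3 egl3, against 5.16 and 4.74 in wild type (difference 0.67, SE 0.213, limma adjusted p = 0.576). The groups did not overlap for 4 of the 8 genes, with SAMBA, ICU2 and FBL17 higher in gl3 egl3, where 38.1% of all probe sets were, and FEN1 lower, where 12.7% were. All 8 had a mean of 3 or more, and in that range 28.9% of probe sets were higher and 17.8% lower. The separation was slight for ICU2, at 3.91 and 4.29 in gl3 egl3, against 3.90 and 3.74 in wild type. FBL17 was at 5.27 and 5.55 in gl3 egl3, against 5.27 and 5.02 in wild type, so its nearest arrays were equal to the second decimal. TOPII, the type II topoisomerase that parts sister chromatids, was named after its values were seen. It had 3.36 and 3.23 in gl3 egl3, against 4.37 and 3.21 in wild type, so wild type replicate 1 was the high array, 1.17 above wild type replicate 2. Of the 8 genes, FEN1, SKP2A and BIN4 had wild type replicate 1 below wild type replicate 2, BIN4 by only 0.01, and the others had it above. FBL17, an F-box protein that targets CDK inhibitors, and ICU2, a subunit of DNA polymerase alpha, differed by 0.27 (SE 0.165) and 0.28 (SE 0.179). SKP2A, another F-box protein, and HBT, an anaphase-promoting complex subunit, differed by -0.16 (SE 0.258) and 0.21 (SE 0.354).

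The markers of the tissue fitted its label in part. The mesophyll genes RCA and LHCB4.1 were high in all arrays (12.48 to 12.61 and 13.24 to 13.39), and the root hair gene EXPA7 was at the low end, as was CLV3, the only measured shoot meristem marker (2.17 to 2.18), whereas PYK10, a root and hypocotyl glucosidase, was at 10.04 to 11.04. The 3 measured guard cell lineage genes were mixed, with SPCH at the low end (2.32 to 2.37), MUTE at 3.51 to 3.83 and FAMA at 6.61 to 7.39. Of the 6 listed trichome genes, GL2, TTG2, TRY, ETC1 and MYB23 were at the low end in both groups, between 2.19 and 2.51. The sixth, the inhibitor gene CPC, was at 2.92 and 2.72 in gl3 egl3, against 3.92 and 5.23 in wild type. Its wild type arrays were 1.31 apart, and the difference of -1.76 (SE 0.581, limma adjusted p = 0.591) did not pass the threshold. Trichome-specific levels of the cell cycle genes were not measured here, since the samples were whole green tissue.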

How the data were processed

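The authors deposited 1 log2 expression value per probe set and array, made with GCRMA in R with AffylmGUI from ATH1 arrays of 2 gl3 egl3 and 2 wild type samples. GCRMA corrects probe background by sequence, normalises quantiles between arrays and summarises probes by median polish. Its version was not given in the sources used here. Array controls (64 of 22810 probe sets) were left out. Names came from the platform annotation (13436 probe sets matched to RefSeq TAIR10.1 by gene number) and, for 22 of the 26 members, from identifiers in the study's trichome gene table. A probe set of several genes named none, and the probe set with the highest mean stood for a gene.

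Groups were compared with limma 3.58.1 in R 4.3.3 (lmFit, eBayes, two-sided, no covariates) on the values as deposited, with Benjamini-Hochberg adjustment over 22746 probe sets and a threshold of 0.05. With 2 arrays per group there were 2 residual degrees of freedom, to which the prior added 0.623, and an interval spans 3.46 SE on each side. The number of arrays limits the precision. The code was tested on simulated data.

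Members and gene lists were chosen with earlier results of these data known. The rule for named genes took SIM, RBR1 and CYCD3;1, members that the study describes as bound by GL3 or GL1, the 6 with the smallest p in each direction, the brightest and the most different member of each role, and the 2 most different other genes. The remaining members are given for completeness. The alternatives were quantile normalisation, median centring, 16 added on the linear scale, a mean of 5 or more, leaving out each array, the replicate block, the methods' t-test, robust variances with an intensity trend, the mean over probe sets, and omission of probe sets that can read several transcripts. The labels do not say what a replicate number marks, so samples were treated as unpaired. A planned search of promoters was not run, as no sequence table was used here.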

Additional observations from a re-analysis of the deposited data

How the results depend on the processing

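No member passed the adjusted threshold under any alternative run, and the median difference stayed between -0.03 and 0.03. Among the members, 1 was lower in gl3 egl3 at an unadjusted p under 0.01 (E2F1). That count was 0 with quantile normalisation, 0 with a mean of 5 or more (which leaves 13 members and drops E2F1), 0 with an intensity trend and robust variances, and 0 by the methods' t-test, and it was 1 under median centring, with 16 added, and with other choices of probe sets. With the replicate number as a block, 0 were lower and 1 was higher, RHL1 (difference 0.64, unadjusted p = 0.00304, limma adjusted p = 0.343). The replicate deviations correlated at 0.134 over all probe sets and 0.184 at a mean of 5 or more, and with 2 pairs and no word in the labels this does not settle whether the numbers pair the samples. Leaving out each array in turn gave 0 to 3 lower and 0 to 2 higher, with a median of -0.03 to 0.00, and E2F1 was among them in no case, with a difference of -0.48 to -0.38. Without wild type replicate 2 the lower ones were AUR2 (-1.41), FAS1 (-0.28) and AUR3 (-0.20), and without wild type replicate 1 MYB103 (-0.48) was lower and AUR2 (0.29) and FAS1 (0.17) were higher. Their gl3 egl3 arrays were within 0.01 of each other, and such a fit takes the lone sample to vary like that pair. Of 425 alternative values of single genes, 28 had the opposite sign and 0 passed the adjusted threshold.

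Sign turned when 1 array was left out, with these ranges: KRP1 -0.39 to 0.24, CDKC;1 -0.03 to 0.12, CDKC;2 -0.03 to 0.14, CYCT1;4 -0.04 to 0.15, CYCT1;5 -0.48 to 0.14, CYCA2;3 -0.10 to 0.20, RBR1 -0.04 to 0.02, CDT1A -0.27 to 0.08, AUR1 -0.45 to 0.75, AUR2 -1.41 to 0.29, MSI1 -0.02 to 0.31, FAS1 -0.28 to 0.17, FAS2 -0.10 to 0.38, FIP37 -0.08 to 0.13, CPR5 -0.04 to 0.01, KAK -0.12 to 0.08, TOPII -1.08 to 0.09, SKP2A -0.37 to 0.05, BIN4 -0.10 to 0.46 and HBT -0.16 to 0.58. FIP37 was at -0.01 with quantile normalisation and -0.01 with median centring, and RHL2 at -0.03 with median centring. The cause was not tested. With 2 arrays per group, differences of over 2-fold in AUR1 and AUR2 could not be told from none, and at the low end of the scale the background correction limits what can be read.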
